A study of Petunia x hybrida with 12 samples.

Results

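Mycorrhizal roots of petunia *ram1* mutants were compared here with mycorrhizal roots of the wild type. All 6 libraries of this comparison came from roots of plants grown beside colonized nurse plants with the fungus *Rhizophagus irregularis* and harvested 15 days after inoculation. The groups were 3 mycorrhizal *ram1* plants, which carry the allele *ram1-2*, and 3 mycorrhizal plants of the wild type line W115. As a background, 3 control plants of *ram1* and 3 control plants of W115 without the fungus were used, which makes 12 libraries in 4 groups. The members of the comparison were the genes with a mean of at least 10 reads in mycorrhizal *ram1* or in mycorrhizal wild type roots, 22406 of 32928 gene models. *RAM1* is represented by a single mutant allele, and the sources used here do not say how closely the mutant line and W115 are related, so that an effect of the mutation and another difference between the lines cannot be told apart from mycorrhizal roots alone. The control roots show which differences were already there without the fungus. The counts cover plant genes, and the degree of colonization was not analysed here. The study reports a smaller share of fungal reads in mycorrhizal *ram1* than in mycorrhizal wild type roots. It also gives a lower mean colonization for *ram1*, with overlapping spreads. Such a difference in the fungus cannot be told apart from an effect of the line in mycorrhizal roots, and the control roots do not remove it.

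Arbuscular mycorrhiza (AM) is a symbiosis between most land plants and fungi of the Glomeromycotina. The fungus grows through the root cortex and forms branched feeding structures, the arbuscules, inside cortex cells. An arbuscule is surrounded by a plant membrane, the periarbuscular membrane, across which the plant takes up phosphate and ammonium and supplies the fungus with lipids and sugars. RAM1 is a transcription factor of the GRAS family that is required for full arbuscule branching in legumes and in petunia.

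Counted reads per library lay between 7152267, in mycorrhizal *ram1* replicate 2, and 13391147, in *ram1* control replicate 3. Between 96.9% and 97.5% of these reads had a unique place. Levels are given as CPM, counts scaled with TMM to a common library size, which are not corrected for transcript length, so that they compare samples and not genes. Summed levels of a gene group take in all its gene models, also those that were no members. The mean correlation of log2 CPM with the other replicates of the same group ranged between 0.962 and 0.984 and was lowest for mycorrhizal *ram1* replicate 1 and, among the control libraries, for *ram1* control replicate 3. These libraries and the shallow mycorrhizal *ram1* replicate 2 were left out in turn for all counts of genes.

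Of the 22406 genes, 11937 (53.3%) differed between mycorrhizal *ram1* and mycorrhizal wild type roots at an adjusted p under 0.05. In *ram1*, 5891 of them were lower and 6046 were higher, and at least 5-fold differences were found for 1381 and 1478 of these genes. Over all 22954 genes tested, 26% were lower and 26.7% were higher in mycorrhizal *ram1* roots, shares that serve as a background for the gene groups below. In control roots, 3904 of the 22406 genes were lower and 4175 were higher in *ram1*, beside 17.5% and 18.8% of all genes tested. The line difference therefore had to be separated from the difference that came with colonization. A test of the interaction, which asks whether the difference between *ram1* and the wild type in mycorrhizal roots was another one than in control roots, called 1184 genes with a negative and 920 genes with a positive value (5.17% and 4.04% of all genes tested). These counts were 1624 and 1664 without *ram1* control replicate 3, 758 and 489 without mycorrhizal wild type replicate 2, and 792 and 477 without *ram1* control replicate 2. A negative interaction means that the *ram1* to wild type ratio was lower in mycorrhizal than in control roots.

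The 3 tests sorted the 11937 genes into classes. A difference was called in mycorrhizal roots and not in control roots, with an interaction of the same sign, for 694 genes that were lower and 549 genes that were higher in *ram1*. These genes are referred to as mycorrhizal only. A further 222 genes differed in both kinds of roots and more strongly in mycorrhizal roots. The largest sorted class, 5555 genes (2630 lower and 2925 higher), differed with the same sign in both and without a called interaction, and is referred to as the line class. For 2480 genes of this class the 95% interval of the interaction lay within 1 log2 unit of 0. This interval comes from the test statistic and can be too narrow for genes with few reads. The count therefore does not show that the differences of all these genes were equal in both kinds of roots. Smaller differences in mycorrhizal roots were found for 93 genes and opposite signs for 263 genes. A remainder of 4561 genes stayed unresolved, since neither the control difference nor the interaction was called. Among the unresolved genes, 3673 had the same sign in control roots as in mycorrhizal roots.

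**Figure D1:**
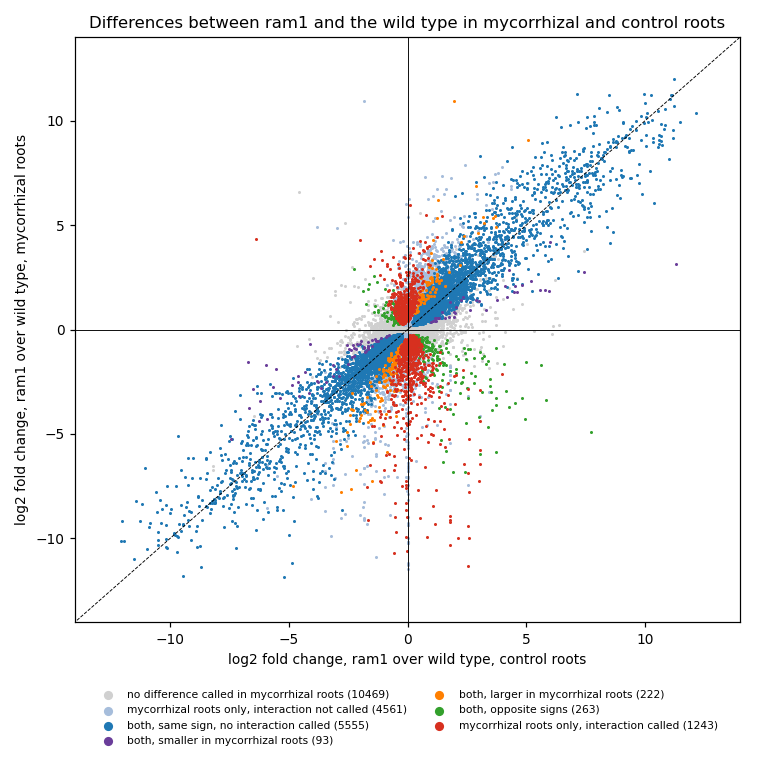
Each point is 1 of the 22406 genes. The vertical axis gives the log2 fold change of *ram1* over the wild type in mycorrhizal roots, the horizontal axis the same in control roots, and the dashed line marks equal values. The 5555 genes of the line class (dark blue) follow the dashed line, and the 1243 genes that differed in mycorrhizal roots only (red) lie along the vertical axis.

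Genes of the mycorrhizal only class had a median log2 fold change of -1.33 among the 694 that were lower and 1.03 among the 549 that were higher in mycorrhizal *ram1* roots. Of the lower genes, 354 had in mycorrhizal wild type roots at least 2 times their level in wild type controls, and 340 were within 2-fold. In *ram1*, 504 of the lower genes were within 2-fold of the control level. A further 90 had at least 2 times the control level in mycorrhizal *ram1* roots, and for 100 the *ram1* controls had at least 2 times the mycorrhizal level. Of the higher genes, 206 had in wild type controls at least 2 times their level in mycorrhizal wild type roots, and 343 were within 2-fold. In *ram1*, 501 of the higher genes were within 2-fold of the control level, and 47 had at least 2 times that level in mycorrhizal roots. The mycorrhizal only counts vary with single libraries: they reached 932 lower and 938 higher genes without *ram1* control replicate 3, and came to 424 lower and 280 higher genes without mycorrhizal wild type replicate 2. Few reads in the controls also limit the test of the interaction. Of 708 genes with under 10 reads in both control groups, 439 were lower in mycorrhizal *ram1* roots, and edgeR called a negative interaction for 101 of them, limma for 205 and DESeq2 for 159.

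*RAM1* itself (Peaxi162Scf00420g00650.1) had 6.06, 8.62 and 8.32 CPM in mycorrhizal *ram1* roots, against 115.1, 108.5 and 128.5 CPM in mycorrhizal wild type roots. The *ram1* values were all below the wild type values (log2 fold change -3.95 ± 0.19, adjusted p = 8.45e-08, fitted value ± SE, edgeR quasi-likelihood test as for all adjusted p values here). In control roots *RAM1* stayed under 1 CPM in both lines, with 0.328, 0.231 and 0.148 CPM in *ram1* control roots, against 0.0812, 0.335 and 0.235 CPM in wild type control roots. The gene belonged to the mycorrhizal only class (interaction log2 -4.05 ± 0.58, adjusted p = 0.00219). The counts are sums over the transcript and do not tell which part of it the remaining reads in *ram1* cover.

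The genes that mark cells with arbuscules were far lower in *ram1*. All 6 genes of this group were lower in mycorrhizal *ram1* roots, and their summed level was 16.6, 37.8 and 17.5 CPM in mycorrhizal *ram1* roots, against 1700, 1514 and 1696 CPM in mycorrhizal wild type roots. The group was taken from the study, which had measured it in these libraries, and its direction is therefore not independent evidence. In whole roots, fewer cells with arbuscules and less RNA per cell with arbuscules cannot be told apart. *PT4* (Peaxi162Scf00618g00532.1), the phosphate transporter of the periarbuscular membrane, had 7.62, 10 and 3.07 CPM in mycorrhizal *ram1* roots, against 650, 546 and 621 CPM in mycorrhizal wild type roots (log2 fold change -6.48 ± 0.69, adjusted p = 2.36e-05). Its control values of 4.76, 2.08 and 6.3 CPM in *ram1* control roots, against 26, 8.63 and 4.85 CPM in wild type control roots, overlapped between the lines, and the interaction was called (interaction log2 -4.90 ± 0.86, adjusted p = 0.00651). *AMT2* (Peaxi162Scf00341g00514.1), an ammonium transporter, was nearly silent in *ram1* with 0.0777, 0 and 0.181 CPM in mycorrhizal *ram1* roots, against 194, 153 and 193 CPM in mycorrhizal wild type roots. The 3 reads in mycorrhizal *ram1* roots correspond to a ratio of 1859 between wild type and *ram1*. Its counting interval of 636 to 9018 covers counting error only and takes each read as independent.

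*RAM2* (Peaxi162Scf00129g00625.1) encodes a glycerol-3-phosphate acyltransferase that is required for lipid supply to the fungus in *Medicago truncatula*. The petunia gene reached 0.233, 1.13 and 0.271 CPM in mycorrhizal *ram1* roots, against 299, 285 and 279 CPM in mycorrhizal wild type roots (log2 fold change -9.25 ± 0.38, adjusted p = 2.54e-06). No read of *RAM2* was counted in any of the 6 control libraries. For such genes the interaction test of edgeR has little power, and it gave an adjusted p = 1, while limma gave 9.5e-05 and DESeq2 gave 3.57e-06. *STR* (Peaxi162Scf00282g00221.1) and *STR2* encode ABCG transporters that act together in the periarbuscular membrane in *Medicago truncatula* and rice. *STR* had 3.27, 13.9 and 7.95 CPM in mycorrhizal *ram1* roots, against 203, 202 and 221 CPM in mycorrhizal wild type roots (log2 fold change -4.69 ± 0.42, adjusted p = 6.53e-06). Its interaction missed the threshold in edgeR (adjusted p = 0.206) and passed it in DESeq2 (0.00657).

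Petunia has a pair of *STR2* genes, and they behaved differently in control roots. *STR2A* (Peaxi162Scf00286g00240.1) had 2.57, 8.34 and 3.16 CPM in mycorrhizal *ram1* roots, against 158, 146 and 155 CPM in mycorrhizal wild type roots (log2 fold change -5.11 ± 0.55, adjusted p = 2.87e-05). In controls it was also lower in the mutant, with 0.328, 0.693 and 0.667 CPM in *ram1* control roots, against 22, 11.9 and 4.62 CPM in wild type control roots (log2 fold change -4.47 ± 0.67, adjusted p = 0.000389), so that it fell into the line class. *STR2B* (Peaxi162Scf00378g00624.1) had 2.8, 4.38 and 2.89 CPM in mycorrhizal *ram1* roots, against 195, 181 and 227 CPM in mycorrhizal wild type roots (log2 fold change -5.94 ± 0.34, adjusted p = 2.96e-07), and no control library passed 1 CPM. Its interaction was called (interaction log2 -5.14 ± 1.1, adjusted p = 0.0153), but not when *ram1* control replicate 1 was left out (adjusted p = 0.373). The interaction of *AMT2* likewise had an adjusted p of 0.0604 without that library.

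**Figure D2:**
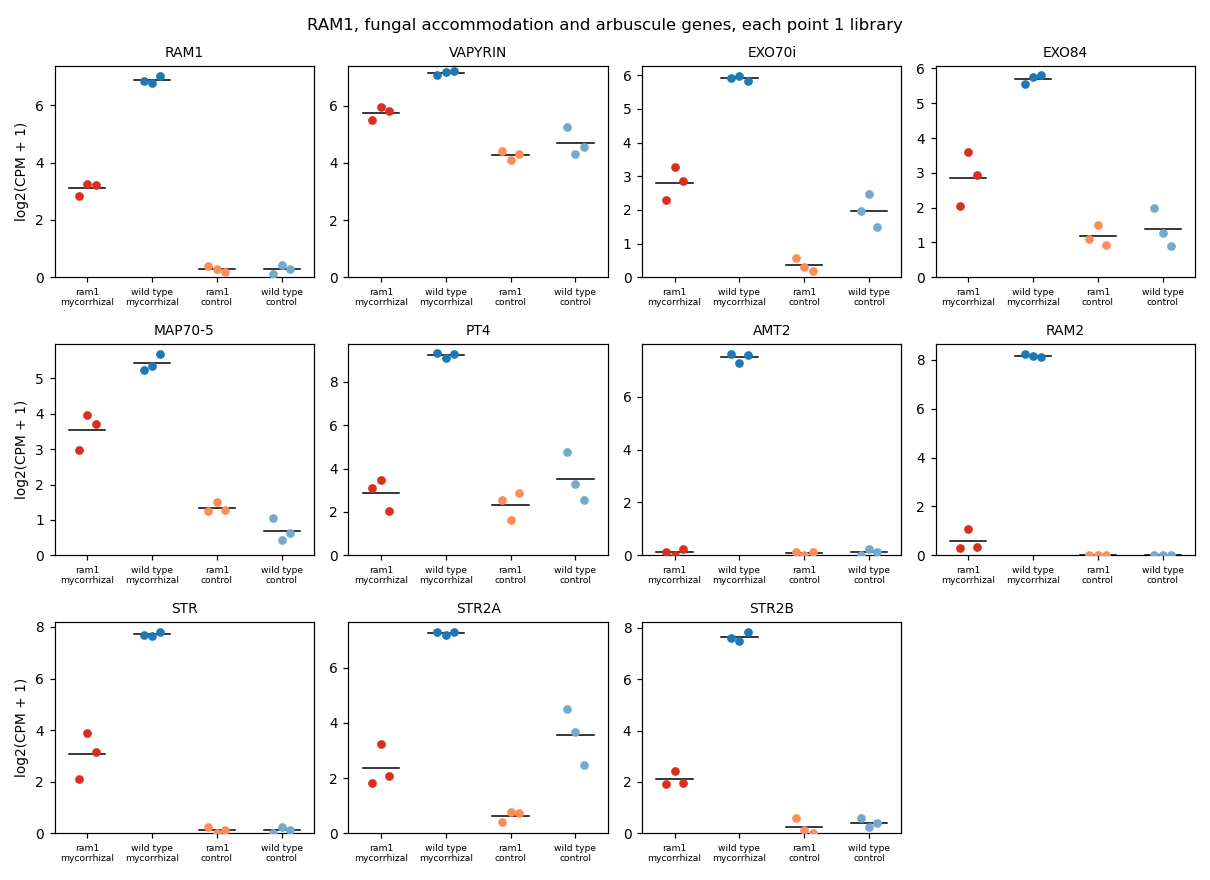
Expression of *RAM1*, 4 accommodation genes and 6 arbuscule genes. Each point is 1 library on the scale log2(CPM + 1), the bars are means of 3 replicates, and the groups run from mycorrhizal *ram1* and mycorrhizal wild type to *ram1* control and wild type control. All 11 genes are lower in mycorrhizal *ram1* than in mycorrhizal wild type roots, and *VAPYRIN* has the smallest distance.

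Genes for the accommodation of the fungus in root cells were lower in mycorrhizal *ram1* roots as well, but kept more of their expression. The 4 genes were also taken from the study and are no independent evidence. Their summed level was 58.1, 95.0 and 80.1 CPM in mycorrhizal *ram1* roots, against 274.4, 300.5 and 311.3 CPM in mycorrhizal wild type roots, and each of the 4 passed the test. *VAPYRIN* (Peaxi162Scf00575g00001.1), required for the entry of the fungus into cells, had 44.2, 60.7 and 55 CPM in mycorrhizal *ram1* roots, against 133, 145 and 148 CPM in mycorrhizal wild type roots (log2 fold change -1.42 ± 0.22, adjusted p = 0.000334). In controls it showed 20.1, 16 and 18.8 CPM in *ram1* control roots, against 37.4, 18.8 and 22.3 CPM in wild type control roots, with no difference called (adjusted p = 0.0942). The interaction missed the threshold in edgeR (adjusted p = 0.095), whereas DESeq2 called it (0.0432).

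*EXO70i* (Peaxi162Scf00081g02225.1) and *EXO84* (Peaxi162Scf00415g00042.1) encode subunits of the exocyst, a complex that tethers vesicles to membranes. *EXO70i* had 3.89, 8.62 and 6.33 CPM in mycorrhizal *ram1* roots, against 59.3, 62 and 56.5 CPM in mycorrhizal wild type roots (log2 fold change -3.27 ± 0.32, adjusted p = 1.47e-05). It was lower in *ram1* controls too, with 0.492, 0.231 and 0.148 CPM in *ram1* control roots, against 2.92, 4.52 and 1.8 CPM in wild type control roots (log2 fold change -3.38 ± 0.51, adjusted p = 0.000392), which placed it in the line class. *EXO84* had 3.11, 11.2 and 6.6 CPM in mycorrhizal *ram1* roots, against 45.5, 53 and 55.2 CPM in mycorrhizal wild type roots (log2 fold change -2.92 ± 0.43, adjusted p = 0.000248). The control levels of *EXO84* overlapped between the lines, and its interaction was close to the threshold (adjusted p = 0.0524 in edgeR, 0.0384 in limma). *MAP70-5* (Peaxi162Scf00008g00212.1), which encodes a protein associated with microtubules, had 6.84, 14.6 and 12.1 CPM in mycorrhizal *ram1* roots, against 37, 40 and 51.1 CPM in mycorrhizal wild type roots (log2 fold change -1.95 ± 0.28, adjusted p = 0.000221). In controls the order of the lines was turned, with 1.39, 1.85 and 1.41 CPM in *ram1* control roots, against 1.06, 0.335 and 0.548 CPM in wild type control roots (log2 fold change 1.25 ± 0.43, adjusted p = 0.0435).

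Genes of the common symbiosis signaling pathway, which act in the recognition of the fungus before infection, differed little. Of 8 members 3 were lower and 1 was higher in mycorrhizal *ram1* roots, none with a log2 difference beyond 1. *SYMRK*, the receptor kinase of the pathway, had 189, 168 and 149 CPM in mycorrhizal *ram1* roots, against 226, 234 and 220 CPM in mycorrhizal wild type roots (log2 fold change -0.43 ± 0.13, adjusted p = 0.0158). The same direction was found in controls (log2 fold change -0.63, adjusted p = 0.00268). *CCaMK*, the kinase that decodes calcium oscillations, was at 122, 113 and 101 CPM in mycorrhizal *ram1* roots, against 178, 179 and 154 CPM in mycorrhizal wild type roots (log2 fold change -0.60 ± 0.18, adjusted p = 0.0144). Its target *CYCLOPS* was not called in mycorrhizal roots (log2 fold change -0.37, adjusted p = 0.171), but was lower in *ram1* controls (log2 fold change -1.27, adjusted p = 0.00106). A fit of the mycorrhizal libraries alone did call *CYCLOPS* as lower in *ram1* (adjusted p = 0.0262). Its interaction passed the threshold without *ram1* control replicate 1 (adjusted p = 0.0138). The nuclear ion channel gene *CASTOR* was the higher member, with 54.7, 52.6 and 59.6 CPM in mycorrhizal *ram1* roots, against 43.9, 45.1 and 47.2 CPM in mycorrhizal wild type roots (log2 fold change 0.29 ± 0.091, adjusted p = 0.0189). In controls *CASTOR* was lower in *ram1*, and the interaction was called (interaction log2 0.70 ± 0.13, adjusted p = 0.00799). The mycorrhizal calls of *CASTOR* and of the nucleoporin gene *NUP133* (log2 fold change -0.26, adjusted p = 0.0412) were lost under several alternatives, with an adjusted p of up to 0.13 for *CASTOR* without mycorrhizal *ram1* replicate 3. *NENA*, another nucleoporin gene, was not called in mycorrhizal roots (adjusted p = 0.0528), but was without mycorrhizal *ram1* replicate 1 (0.0341).

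Strigolactones are root signals that stimulate the fungus. Of 5 strigolactone genes among the members, 2 were lower and 1 was higher in mycorrhizal *ram1* roots. *D27*, the carotene isomerase that opens the pathway, had 34.3, 38.5 and 35.1 CPM in mycorrhizal *ram1* roots, against 86.4, 89.3 and 106 CPM in mycorrhizal wild type roots (log2 fold change -1.39 ± 0.16, adjusted p = 5.3e-05), and was lower in *ram1* controls too (log2 fold change -0.91, adjusted p = 0.0014). The dioxygenase genes of the following steps differed less. *CCD7* had an adjusted p of 0.0333 (log2 fold change -0.99), lost when mycorrhizal *ram1* replicate 2 was left out (0.0782), and *CCD8* was not called (log2 fold change -0.15, adjusted p = 0.705). *MAX2-B*, an F-box gene of strigolactone perception, was at 14.8, 15.3 and 14.8 CPM in mycorrhizal *ram1* roots, against 5.43, 6.45 and 7.02 CPM in mycorrhizal wild type roots (log2 fold change 1.24 ± 0.15, adjusted p = 5.47e-05). In controls *MAX2-B* did not differ at the threshold, and the interaction was called (interaction log2 0.98 ± 0.21, adjusted p = 0.0145). Its copy *MAX2-A* was not called (adjusted p = 0.616).

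The genes with the smallest p among those that were lower in mycorrhizal roots only were mostly near zero in *ram1* and abundant in the wild type. A subtilisin-like protease gene (Peaxi162Scf00611g00319.1) came first, with 0.155, 0.141 and 0.0904 CPM in mycorrhizal *ram1* roots, against 113, 116 and 122 CPM in mycorrhizal wild type roots (log2 fold change -9.71 ± 0.14, adjusted p = 2.06e-11). The mycorrhizal *ram1* values rest on 4 reads, and this SE does not show the counting error of so few reads. Subtilases are secreted proteases, and some are known from cells with arbuscules in legumes. In controls all 6 libraries stayed under 1 CPM, and the interaction was called (interaction log2 -9.22 ± 0.26, adjusted p = 2.7e-08). Another subtilase gene (Peaxi162Scf00620g00418.1) kept part of its level in the mutant, with 38.3, 75.1 and 57.8 CPM in mycorrhizal *ram1* roots, against 1271, 1239 and 1362 CPM in mycorrhizal wild type roots (log2 fold change -4.50 ± 0.23, adjusted p = 1.58e-07). Of 56 subtilase genes 19 (33.9%) were lower and 16 (28.6%) were higher, with a median log2 fold change of 0.09.

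Serine carboxypeptidase-like proteins are secreted hydrolases or acyltransferases. Of 48 such genes 21 (43.8%) were lower and 8 were higher in mycorrhizal *ram1* roots, with a negative interaction for 8 and a positive one for 1. *SCPL22* (Peaxi162Scf00334g00323.1) had 14.2, 14.7 and 14.6 CPM in mycorrhizal *ram1* roots, against 127, 123 and 141 CPM in mycorrhizal wild type roots (log2 fold change -3.17 ± 0.097, adjusted p = 6.31e-09). Its mycorrhizal *ram1* values were close to the control values of 16.6, 16.2 and 16.8 CPM in *ram1* control roots, against 20.7, 17 and 18.4 CPM in wild type control roots. A gene described as *SCPL40* (Peaxi162Scf00003g01725.1) had 0.233, 0.141 and 0.362 CPM in mycorrhizal *ram1* roots, against 87.8, 89.8 and 78.3 CPM in mycorrhizal wild type roots (log2 fold change -8.32 ± 0.32, adjusted p = 2.04e-08). A further gene of this description (Peaxi162Scf00016g01638.1) had 2.02, 4.95 and 3.43 CPM in mycorrhizal *ram1* roots, against 288, 295 and 301 CPM in mycorrhizal wild type roots (log2 fold change -6.46 ± 0.26, adjusted p = 2.16e-07). Both *SCPL40* genes had no more than 0.157 CPM in any control library.

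A pair of genes for ripening-related proteins of unknown role shared this pattern. The first (Peaxi162Scf00119g00625.1) had 0.544, 0.848 and 0.542 CPM in mycorrhizal *ram1* roots, against 327, 260 and 362 CPM in mycorrhizal wild type roots (log2 fold change -8.97 ± 0.29, adjusted p = 1.23e-08). The second (Peaxi162Scf00056g00004.1) had 0.311, 0.283 and 0.452 CPM in mycorrhizal *ram1* roots, against 232, 155 and 187 CPM in mycorrhizal wild type roots (log2 fold change -9.03 ± 0.31, adjusted p = 1.28e-08). A gene for a methyltransferase (Peaxi162Scf00013g00228.1) had 1.24, 1.41 and 1.18 CPM in mycorrhizal *ram1* roots, against 42.8, 50.2 and 50.8 CPM in mycorrhizal wild type roots (log2 fold change -5.23 ± 0.15, adjusted p = 5.38e-09), but only 37.7% of its reads were unique, so that its level is shared with similar genes and uncertain.

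Chitinases cleave chitin, the main polymer of fungal walls. Of 26 chitinase genes 14 (53.8%) were lower and 6 were higher in mycorrhizal *ram1* roots, with a median log2 fold change of -1.74, against 0.01 over all genes tested. A negative interaction was called for 7, and for 3 without *ram1* control replicate 1. The summed level of the family moved the other way, with 4189, 6200 and 5547 CPM in mycorrhizal *ram1* roots, against 3865, 4118 and 2912 CPM in mycorrhizal wild type roots. A gene with a chitinase insertion domain (Peaxi162Scf00347g00041.1) had 1.01, 0.424 and 0.994 CPM in mycorrhizal *ram1* roots, against 159, 162 and 181 CPM in mycorrhizal wild type roots (log2 fold change -7.59 ± 0.25, adjusted p = 1.28e-08). An acidic endochitinase gene (Peaxi162Scf01254g00005.1) had 0.0777, 0 and 0.181 CPM in mycorrhizal *ram1* roots, against 117, 86.6 and 107 CPM in mycorrhizal wild type roots. The ratio of wild type to *ram1* was 1066 for this gene, with a counting interval of 365 to 5173 on 3 reads in mycorrhizal *ram1* roots.

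Germin-like proteins are enzymes of the cell wall, and 17 of 38 (44.7%) were lower and 6 were higher in mycorrhizal *ram1* roots. The higher ones depended on mycorrhizal *ram1* replicate 1, without which 3 were called. A negative interaction was called for 6, and for 3 without *ram1* control replicate 1. *Germin-like 2* (Peaxi162Scf00003g04532.1) had 16.6, 17.4 and 21.2 CPM in mycorrhizal *ram1* roots, against 626, 739 and 498 CPM in mycorrhizal wild type roots (log2 fold change -5.07 ± 0.22, adjusted p = 4.39e-08). For a *germin-like 10* gene (Peaxi162Scf00040g10021.1) the levels were 0.311, 0.99 and 1.72 CPM in mycorrhizal *ram1* roots, against 372, 312 and 368 CPM in mycorrhizal wild type roots (log2 fold change -8.47 ± 0.46, adjusted p = 2.08e-07). Another gene of this description, on the same scaffold by its identifier (Peaxi162Scf00040g00024.1), had 1.48, 2.69 and 2.17 CPM in mycorrhizal *ram1* roots, against 279, 212 and 267 CPM in mycorrhizal wild type roots (log2 fold change -6.94 ± 0.24, adjusted p = 1.28e-08). The 3 germin-like genes were under 1 CPM in all control libraries.

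Genes of fatty acid synthesis in plastids were mostly lower in *ram1*. The pathway makes acetyl-CoA with the pyruvate dehydrogenase complex, carboxylates it to malonyl-CoA, and extends acyl chains on an acyl carrier protein (ACP) by cycles of condensation, reduction, dehydration and a further reduction. Of 67 genes with these descriptions, which also take in mitochondrial forms, 44 (65.7%) were lower and 9 were higher in mycorrhizal *ram1* roots, against 26% and 26.7% of all genes. The summed level was 2893, 2803 and 2639 CPM in mycorrhizal *ram1* roots, against 6697, 6742 and 6831 CPM in mycorrhizal wild type roots. In controls the sums overlapped, with 3464, 3358 and 3185 CPM in *ram1* and 3450, 3314 and 3341 CPM in the wild type. A negative interaction was called for 25 genes (37.3%, against 5.17% of all genes) and a positive one for 0. The unadjusted count of positive interactions was 4 in edgeR, limma and DESeq2 called 0 and 1, and edgeR called 2 without *ram1* control replicate 3. Leaving out any library gave 41 to 47 lower genes and 21 to 28 negative interactions.

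The genes of the single steps given here were chosen after their values had been seen, except for the E1 beta subunit, the E2 subunit, FabZ and acyl carrier protein 1. The alpha and beta subunits of pyruvate dehydrogenase E1 were placed at the start of the pathway, although their descriptions name no compartment. E1 alpha (Peaxi162Scf00047g02454.1) had 90.5, 101 and 101 CPM in mycorrhizal *ram1* roots, against 496, 526 and 551 CPM in mycorrhizal wild type roots (log2 fold change -2.43 ± 0.11, adjusted p = 8.45e-08). E1 beta (Peaxi162Scf00394g00118.1) had 37.9, 41.4 and 39.9 CPM in mycorrhizal *ram1* roots, against 330, 322 and 351 CPM in mycorrhizal wild type roots (log2 fold change -3.07 ± 0.092, adjusted p = 5.38e-09). The E2 subunit, dihydrolipoyl acetyltransferase (Peaxi162Scf00004g01917.1), had 30.6, 29.4 and 34.3 CPM in mycorrhizal *ram1* roots, against 282, 295 and 266 CPM in mycorrhizal wild type roots (log2 fold change -3.16 ± 0.11, adjusted p = 1.28e-08). For all 3 subunits the mycorrhizal *ram1* values lay at the control level, as the E1 beta values of 41.9, 42.7 and 42.3 CPM in *ram1* control roots, against 40.4, 47.8 and 46.5 CPM in wild type control roots show.

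Acetyl-CoA carboxylase followed the same course. Its biotin carboxylase subunit (Peaxi162Scf00021g02414.1) had 81.6, 89.4 and 82.3 CPM in mycorrhizal *ram1* roots, against 356, 359 and 380 CPM in mycorrhizal wild type roots (log2 fold change -2.11 ± 0.081, adjusted p = 1.92e-08). The biotin carboxyl carrier protein (Peaxi162Scf00013g00635.1) had 13, 18.4 and 15 CPM in mycorrhizal *ram1* roots, against 144, 155 and 158 CPM in mycorrhizal wild type roots (log2 fold change -3.31 ± 0.13, adjusted p = 2.81e-08). Neither subunit differed at the threshold in controls. Malonyl-CoA ACP transacylase (Peaxi162Scf00055g00057.1), which loads malonate onto ACP, had 34.5, 35.2 and 36.3 CPM in mycorrhizal *ram1* roots, against 144, 148 and 161 CPM in mycorrhizal wild type roots (log2 fold change -2.09 ± 0.079, adjusted p = 1.64e-08).

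Of 28 genes described as enzymes of the elongation cycle, 19 were lower, 5 were higher and 4 were not called. The condensing enzyme 3-oxoacyl-ACP synthase 3 (Peaxi162Scf00516g00327.1) had 23.8, 24.6 and 21.2 CPM in mycorrhizal *ram1* roots, against 82, 82.3 and 92.1 CPM in mycorrhizal wild type roots (log2 fold change -1.88 ± 0.11, adjusted p = 2.7e-07). The first reductase, 3-oxoacyl-ACP reductase 4 (Peaxi162Scf00128g00834.1), had 18.7, 26.3 and 17.9 CPM in mycorrhizal *ram1* roots, against 358, 362 and 401 CPM in mycorrhizal wild type roots (log2 fold change -4.16 ± 0.16, adjusted p = 1.64e-08). The dehydratase FabZ (Peaxi162Scf00003g03625.1) had 12.7, 12.2 and 11.8 CPM in mycorrhizal *ram1* roots, against 90.2, 88.7 and 90.3 CPM in mycorrhizal wild type roots (log2 fold change -2.88 ± 0.083, adjusted p = 5.38e-09). These genes and the transacylase were also lower in *ram1* controls, by 0.35 to 0.48 log2 units, and their interactions were called. The last reductase of the cycle, enoyl-ACP reductase 1 (Peaxi162Scf00258g00430.1), had 47, 51.2 and 47.9 CPM in mycorrhizal *ram1* roots, against 362, 357 and 372 CPM in mycorrhizal wild type roots (log2 fold change -2.90 ± 0.1, adjusted p = 1.32e-08).

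An ACP gene stood out by opposite signs. *Acyl carrier protein 1* (Peaxi162Scf00033g01724.1) had 1.09, 1.56 and 0.362 CPM in mycorrhizal *ram1* roots, against 112, 93.8 and 118 CPM in mycorrhizal wild type roots (log2 fold change -6.81 ± 0.31, adjusted p = 6.59e-08). In controls it was low but higher in the mutant, with 0.574, 0.693 and 1.04 CPM in *ram1* control roots, against 0.162, 0.167 and 0.0783 CPM in wild type control roots (log2 fold change 2.43 ± 0.57, adjusted p = 0.0067). Glycerol-3-phosphate acyltransferases, the enzyme family of RAM2, had 4 of 12 genes lower and 5 higher, and 2 lower without mycorrhizal wild type replicate 2.

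**Figure D3:**
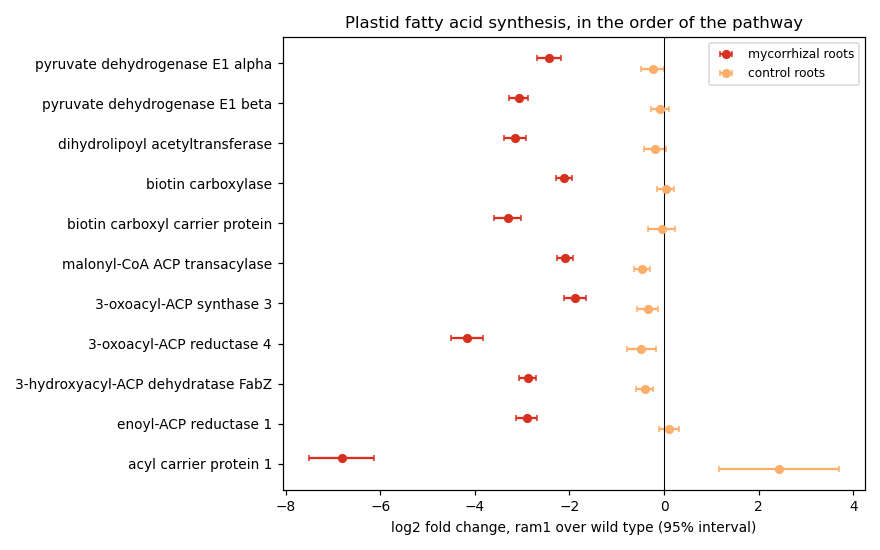
Log2 fold change of *ram1* over the wild type for 11 genes of the plastid fatty acid synthesis group, from the pyruvate dehydrogenase complex at the top to the acyl carrier protein. The group is defined by descriptions, and those of the E1 subunits name no compartment. Points are fitted values with 95% intervals in mycorrhizal roots (red) and control roots (orange). In mycorrhizal roots all 11 values lie between -6.81 and -1.88, and in control roots 10 lie between -0.48 and 0.10, with acyl carrier protein 1 at 2.43.

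Transporters of ammonium were mostly lower in *ram1*. Of 10 ammonium transporter genes 8 were lower and 2 were higher in mycorrhizal *ram1* roots. Besides *AMT2*, a gene of the same description (Peaxi162Scf00282g00327.1) had 13.8, 20.9 and 25.9 CPM in mycorrhizal *ram1* roots, against 76.1, 102 and 86.7 CPM in mycorrhizal wild type roots (log2 fold change -2.13 ± 0.22, adjusted p = 2.14e-05). A gene next to *AMT2* by its identifier (Peaxi162Scf00341g00515.1, chosen after its values had been seen) had 0 reads in the 3 mycorrhizal *ram1* libraries and in all controls, against 7.28, 6.45 and 6.64 CPM in mycorrhizal wild type roots. Against a floor of 3 reads over the *ram1* group it was at least 69.9-fold lower in *ram1*. A low gene of the same kind (Peaxi162Scf00165g00213.1) had a log2 fold change of -3.49 ± 0.45 (adjusted p = 9.85e-05). An *AMT1* type gene (Peaxi162Scf00125g00122.1), likewise chosen after its values had been seen, went the other way with 151, 169 and 168 CPM in mycorrhizal *ram1* roots, against 82.7, 91.6 and 63.6 CPM in mycorrhizal wild type roots (log2 fold change 1.04 ± 0.16, adjusted p = 0.000301). Its mycorrhizal wild type values were the lowest of the 4 groups, since controls had 114, 99 and 143 CPM in *ram1* control roots, against 133, 120 and 139 CPM in wild type control roots.

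Among 93 nitrate and peptide transporter genes, 31 (33.3%) were lower and 21 (22.6%) were higher, against 26% and 26.7% of all genes. *NPF4.3* (Peaxi162Scf00194g00322.1) had 0, 0.424 and 0.0904 CPM in mycorrhizal *ram1* roots, against 134, 95.9 and 168 CPM in mycorrhizal wild type roots (log2 fold change -9.88 ± 0.55, adjusted p = 2.44e-07). Of 15 sulfate transporter genes 6 (40%) were lower and 3 (20%) were higher, and 1 was higher without mycorrhizal *ram1* replicate 3. The 3 negative interactions of this group were all lost without mycorrhizal *ram1* replicate 2. Sugar transporters showed no leaning (15 of 57 or 26.3% lower, 10 or 17.5% higher). Of the ABCG transporters with the STR proteins, 12 of 26 (46.2%) were lower and 6 (23.1%) were higher. Their summed level was 794.7, 674.3 and 675.6 CPM in mycorrhizal *ram1* roots, against 1768, 1810 and 1792 CPM in mycorrhizal wild type roots. These sums include *STR*, *STR2A* and *STR2B*, with means of 8.36, 4.69 and 3.36 CPM in mycorrhizal *ram1* and of 209, 153 and 201 CPM in mycorrhizal wild type roots. The 3 genes were taken from the study and are no independent evidence.

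Aquaporins, the channels for water and small solutes, were mostly lower in *ram1*. Of 42 genes 27 (64.3%) were lower and 4 were higher in mycorrhizal *ram1* roots, with a median log2 fold change of -1.32. The summed level was 11812, 10755 and 9683 CPM in mycorrhizal *ram1* roots, against 27234, 21715 and 23630 CPM in mycorrhizal wild type roots. In controls the sums were more variable and overlapped, with 24590, 21920 and 14778 CPM in *ram1* and 22053, 26275 and 33997 CPM in the wild type. A negative interaction was called for 8 aquaporin genes, for 18 without *ram1* control replicate 3 and for 3 without mycorrhizal *ram1* replicate 3.

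The members with the smallest p differed in both kinds of roots. *PIP1* (Peaxi162Scf00951g00329.1), an aquaporin of the plasma membrane, had 8.24, 15.7 and 11.8 CPM in mycorrhizal *ram1* roots, against 1277, 899 and 1110 CPM in mycorrhizal wild type roots (log2 fold change -6.54 ± 0.44, adjusted p = 9.6e-07). Controls showed the same order, with 32.4, 27.7 and 14.1 CPM in *ram1* control roots, against 640, 789 and 1352 CPM in wild type control roots. *PIP2A* (Peaxi162Scf00413g00118.1) had 62.9, 85.3 and 50.4 CPM in mycorrhizal *ram1* roots, against 912, 605 and 749 CPM in mycorrhizal wild type roots (log2 fold change -3.51 ± 0.3, adjusted p = 5.38e-06). *NIP1-1* (Peaxi162Scf00112g00158.1) differed in both kinds of roots and more in mycorrhizal roots, with 16.3, 14.7 and 13.1 CPM in mycorrhizal *ram1* roots, against 58.8, 57.1 and 56.1 CPM in mycorrhizal wild type roots (log2 fold change -1.96 ± 0.14, adjusted p = 1.55e-06 and interaction log2 -1.06 ± 0.2, adjusted p = 0.00819).

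Genes that respond to phosphate starvation differed in both directions, and their interactions were more often positive than negative. In many plants such genes are repressed when a root receives enough phosphate. Of 67 genes with these descriptions, 25 (37.3%) were higher and 22 (32.8%) were lower in mycorrhizal *ram1* roots. A positive interaction was called for 19 (28.4%, against 4.04% of all genes) and a negative one for 10 (14.9%, against 5.17% of all genes). The summed level of the group was 7209, 8137 and 6738 CPM in mycorrhizal *ram1* roots, against 5349, 5289 and 4718 CPM in mycorrhizal wild type roots. In controls it was 7142, 7049 and 7958 CPM in *ram1*, against 8883, 8395 and 7610 CPM in the wild type. Leaving out any library gave 23 to 27 higher genes and 15 to 22 positive interactions.

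SPX proteins are sensors that bind inositol pyrophosphates and hold back the transcriptional phosphate starvation response. *SPX1* (Peaxi162Scf01269g00014.1) had 831, 1057 and 714 CPM in mycorrhizal *ram1* roots, against 174, 136 and 121 CPM in mycorrhizal wild type roots (log2 fold change 2.59 ± 0.23, adjusted p = 6.25e-06). Its mycorrhizal *ram1* values overlapped with the controls of both lines, 718, 635 and 909 CPM in *ram1* control roots, against 950, 771 and 611 CPM in wild type control roots, so that the mycorrhizal wild type stood apart from the other groups. The following genes of this paragraph were chosen after their values had been seen. *SPX3* (Peaxi162Scf00803g00014.1) had 566, 754 and 521 CPM in mycorrhizal *ram1* roots, against 52, 48.2 and 23.2 CPM in mycorrhizal wild type roots (log2 fold change 3.90 ± 0.37, adjusted p = 1.17e-05). *SPX4* (Peaxi162Scf00166g01051.1) had 12.7, 7.92 and 6.51 CPM in mycorrhizal *ram1* roots, against 1.47, 1.76 and 1.68 CPM in mycorrhizal wild type roots (log2 fold change 2.47 ± 0.26, adjusted p = 2.55e-05). *SPX2* (Peaxi162Scf00073g01422.1) showed a smaller difference, with 449, 524 and 427 CPM in mycorrhizal *ram1* roots, against 246, 227 and 229 CPM in mycorrhizal wild type roots (log2 fold change 1.00 ± 0.12, adjusted p = 7.11e-05). None of the 4 *SPX* genes differed between the lines in controls at the threshold, and all 4 interactions were called.

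Plants short of phosphate replace phospholipids by galactolipids and sulfolipids. The galactolipid synthase gene *MGD2* (Peaxi162Scf00088g00096.1) had 333, 348 and 264 CPM in mycorrhizal *ram1* roots, against 91.3, 89.7 and 70 CPM in mycorrhizal wild type roots (log2 fold change 1.91 ± 0.18, adjusted p = 1.14e-05). *DGD2* (Peaxi162Scf00008g01718.1), which adds a further galactose, had 212, 199 and 204 CPM in mycorrhizal *ram1* roots, against 113, 110 and 101 CPM in mycorrhizal wild type roots (log2 fold change 0.92 ± 0.081, adjusted p = 6.21e-06). The related *DGD1* (Peaxi162Scf00211g00058.1) had 193, 238 and 213 CPM in mycorrhizal *ram1* roots, against 48.1, 47.8 and 43.4 CPM in mycorrhizal wild type roots (log2 fold change 2.21 ± 0.16, adjusted p = 1.67e-06) and was higher in *ram1* controls too (log2 fold change 1.33, adjusted p = 7.9e-05). The sulfolipid gene *SQD1* (Peaxi162Scf00327g00612.1), chosen after its values had been seen, had 299, 378 and 327 CPM in mycorrhizal *ram1* roots, against 155, 162 and 122 CPM in mycorrhizal wild type roots (log2 fold change 1.20 ± 0.17, adjusted p = 0.000183).

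Purple acid phosphatases, which release phosphate from organic compounds, differed in both directions. *PAP17* (Peaxi162Scf00171g00924.1) had 286, 307 and 233 CPM in mycorrhizal *ram1* roots, against 87.2, 87.1 and 43.6 CPM in mycorrhizal wild type roots (log2 fold change 1.92 ± 0.24, adjusted p = 8.56e-05), below the controls of both lines. *PAP24* (Peaxi162Scf00309g00120.1) went in the opposite direction with 7.31, 8.48 and 7.68 CPM in mycorrhizal *ram1* roots, against 72.8, 59.9 and 71.3 CPM in mycorrhizal wild type roots (log2 fold change -3.12 ± 0.3, adjusted p = 1.14e-05), and both were chosen after their values had been seen. *PAP15* (Peaxi162Scf00106g01215.1) was a line difference, with 0, 0.141 and 0 CPM in mycorrhizal *ram1* roots, against 43.8, 43.8 and 26.4 CPM in mycorrhizal wild type roots. Its control levels were 0.082, 0.154 and 0.0741 CPM in *ram1* control roots, against 112, 104 and 94.3 CPM in wild type control roots. The 1 read of *PAP15* in mycorrhizal *ram1* roots gives a ratio of wild type to *ram1* of 1161, with a counting interval of 208 to 45905. *PAP27* (Peaxi162Scf00046g00119.1) was lower in both kinds of *ram1* roots (mycorrhizal log2 fold change -3.16 ± 0.23, adjusted p = 1.43e-06).

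**Figure D4:**
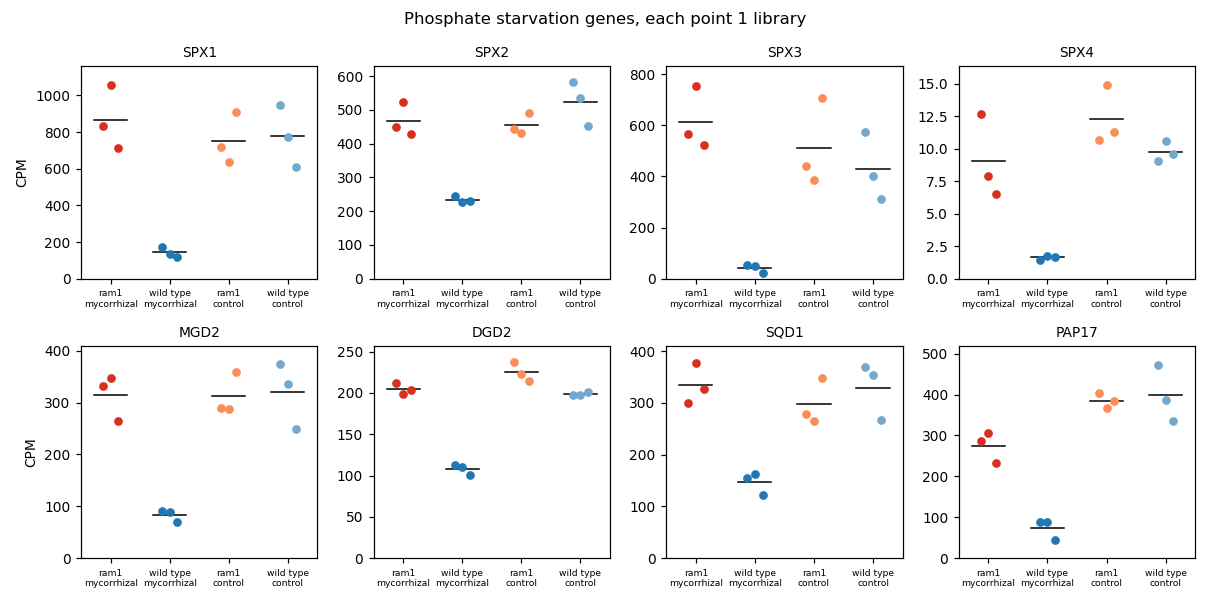
CPM of 8 phosphate starvation genes in each library, with bars at the mean of 3 replicates and a scale of its own for each gene. The groups run from mycorrhizal *ram1* and mycorrhizal wild type to *ram1* control and wild type control. In all 8 genes the mycorrhizal wild type libraries are the lowest, but 5 of the 8 were chosen after their values had been seen, and 22 of the 67 genes of the group were lower in mycorrhizal *ram1* roots.

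Phosphate transporters were split, with 6 of 20 genes lower, *PT4* among them, and 7 higher in mycorrhizal *ram1* roots. *Phosphate transporter 2* (Peaxi162Scf00076g00027.1) had 14.5, 20.4 and 18.2 CPM in mycorrhizal *ram1* roots, against 0.276, 0.0838 and 0.0763 CPM in mycorrhizal wild type roots (log2 fold change 6.87 ± 0.45, adjusted p = 6.92e-07). It was higher in *ram1* controls as well, with 10.5, 12.8 and 16.8 CPM in *ram1* control roots, against 2.6, 1.76 and 1.1 CPM in wild type control roots. The phosphate exporter gene *PHO1 homolog 1* (Peaxi162Scf00198g00043.1) had 63.2, 76.4 and 55 CPM in mycorrhizal *ram1* roots, against 5.25, 9.05 and 4.12 CPM in mycorrhizal wild type roots (log2 fold change 3.40 ± 0.27, adjusted p = 2.65e-06 and interaction log2 1.91 ± 0.35, adjusted p = 0.00772). A gene described as phosphate transporter 1 (Peaxi162Scf00006g00443.1) was lower in mycorrhizal roots (log2 fold change -5.16) and in controls (-6.71), but only 29.2% of its reads were unique, so that its reads cannot be told apart from those of similar genes.

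Other genes that were higher in mycorrhizal *ram1* roots only had, like the *SPX* genes, their lowest values in mycorrhizal wild type roots. A Rossmann-fold protein gene (Peaxi162Scf01039g00130.1) had the smallest p, with 88.6, 74.8 and 67.2 CPM in mycorrhizal *ram1* roots, against 15.3, 15.8 and 11.7 CPM in mycorrhizal wild type roots (log2 fold change 2.43 ± 0.19, adjusted p = 2.74e-06). The cytochrome P450 gene *CYP87A6* (Peaxi162Scf00154g00926.1) had 152, 158 and 126 CPM in mycorrhizal *ram1* roots, against 51.2, 47 and 44.9 CPM in mycorrhizal wild type roots (log2 fold change 1.61 ± 0.15, adjusted p = 8.28e-06). A UDP-glycosyltransferase gene (Peaxi162Scf00016g02111.1) had 90.3, 84 and 82.1 CPM in mycorrhizal *ram1* roots, against 35.5, 25.9 and 30.4 CPM in mycorrhizal wild type roots (log2 fold change 1.48 ± 0.14, adjusted p = 1.08e-05). A drought-responsive family gene (Peaxi162Scf00071g00430.1) and *CYP87A6* differed from the others, since their mycorrhizal *ram1* values exceeded all controls. The drought-responsive gene had 1019, 1190 and 1502 CPM in mycorrhizal *ram1* roots, against 245, 252 and 252 CPM in mycorrhizal wild type roots (log2 fold change 2.31 ± 0.22, adjusted p = 1.17e-05). The large families behind these enzymes had no common direction: of 321 cytochrome P450 genes 89 were lower and 114 were higher, and of 173 UDP-glycosyltransferase genes 61 were lower and 60 were higher.

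Transcription factors of the GRAS family, to which RAM1 belongs, were lower more often than higher in mycorrhizal *ram1* roots, with 25 of 62 (40.3%) lower and 14 higher. The interaction was negative for 10 and positive for 8, and positive for 4 without mycorrhizal *ram1* replicate 2. The GRAS gene Peaxi162Scf00075g01527.1 had 15.5, 14.7 and 15.6 CPM in mycorrhizal *ram1* roots, against 37.5, 53.7 and 48.7 CPM in mycorrhizal wild type roots (log2 fold change -1.61 ± 0.13, adjusted p = 3.86e-06), and the mutant values stayed above the 6.4 to 7.75 CPM of the controls. Peaxi162Scf01160g00124.1 was lower in both kinds of roots, with 0.311, 0.848 and 0.362 CPM in mycorrhizal *ram1* roots, against 17.7, 14.3 and 21.1 CPM in mycorrhizal wild type roots (log2 fold change -5.22 ± 0.46, adjusted p = 6.25e-06). Peaxi162Scf00073g00110.1 was higher in mycorrhizal *ram1* roots, with 281, 220 and 165 CPM in mycorrhizal *ram1* roots, against 47.2, 55.3 and 41.1 CPM in mycorrhizal wild type roots (log2 fold change 2.21 ± 0.21, adjusted p = 1.11e-05 and interaction log2 1.95 ± 0.29, adjusted p = 0.0026).

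WRKY factors, known for roles in defense and phosphate responses, were mostly higher in *ram1*. Of 71 genes 40 (56.3%) were higher and 6 were lower, with a median log2 fold change of 0.83, against 0.01 over all genes tested. Without mycorrhizal *ram1* replicate 1, 31 were higher, and the positive interactions numbered 5 in the full fit, 13 without *ram1* control replicate 3 and 0 without mycorrhizal wild type replicate 1. Their summed level was 3143, 2537 and 1944 CPM in mycorrhizal *ram1* roots, against 1349, 1322 and 1375 CPM in mycorrhizal wild type roots. The members with the smallest p belonged to the line class. *WRKY11* (Peaxi162Scf00459g00841.1) had 65.5, 75.5 and 57.3 CPM in mycorrhizal *ram1* roots, against 29.2, 26.4 and 25.3 CPM in mycorrhizal wild type roots (log2 fold change 1.29 ± 0.15, adjusted p = 3.62e-05). *WRKY57* (Peaxi162Scf00314g00115.1) had 9.17, 11.9 and 11.8 CPM in mycorrhizal *ram1* roots, against 2.76, 3.6 and 2.67 CPM in mycorrhizal wild type roots (log2 fold change 1.85 ± 0.25, adjusted p = 0.000146). A further member (Peaxi162Scf00585g00513.1) had 31.7, 14.6 and 15.4 CPM in mycorrhizal *ram1* roots, against 5.62, 3.1 and 4.27 CPM in mycorrhizal wild type roots (log2 fold change 2.26 ± 0.32, adjusted p = 0.000189).

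NAC factors, a family with roles in senescence and stress, were higher in 26 of 69 genes (37.7%) and lower in 8. Positive interactions were called for 7, for 1 without mycorrhizal *ram1* replicate 2 and for 15 without *ram1* control replicate 3. The NAC gene Peaxi162Scf00253g00321.1 had 86.4, 95.6 and 86.8 CPM in mycorrhizal *ram1* roots, against 38.3, 43.1 and 43.6 CPM in mycorrhizal wild type roots (log2 fold change 1.10 ± 0.1, adjusted p = 8.11e-06). Peaxi162Scf00051g01410.1 had 136, 119 and 80.2 CPM in mycorrhizal *ram1* roots, against 38.5, 35.7 and 40.6 CPM in mycorrhizal wild type roots (log2 fold change 1.54 ± 0.17, adjusted p = 3.07e-05). Both were higher in *ram1* controls too.

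Genes for cytosolic ribosomal proteins were lower as a broad group and by small amounts. Of 211 genes 130 (61.6%) were lower and 14 were higher in mycorrhizal *ram1* roots, with a median log2 fold change of -0.36, and 9 were higher without mycorrhizal *ram1* replicate 3. The summed level was 27230, 28446 and 31352 CPM in mycorrhizal *ram1* roots, against 36207, 38899 and 40699 CPM in mycorrhizal wild type roots. In controls the sums of 25276, 27546 and 22854 CPM in *ram1* and of 23773, 24950 and 26950 CPM in the wild type overlapped. A negative interaction was called for 42, with a range from 11 without mycorrhizal wild type replicate 2 to 76 without *ram1* control replicate 3. The members with the smallest p were large differences between the lines in single genes. *60S L37a* (Peaxi162Scf00103g01212.1) had 0.155, 0.283 and 0.181 CPM in mycorrhizal *ram1* roots, against 87.5, 89.1 and 96.6 CPM in mycorrhizal wild type roots, and *60S L23a* (Peaxi162Scf00604g00036.1) had 49.1, 46.4 and 57.6 CPM in mycorrhizal *ram1* roots, against 0.0921, 0 and 0 CPM in mycorrhizal wild type roots. *40S S26* (Peaxi162Scf00329g00117.1) was also lower in mycorrhizal *ram1* roots (log2 fold change -2.03 ± 0.12, adjusted p = 3.74e-07), with 59.7% unique reads.

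Kinesins, the motor proteins of microtubules, were lower in 25 of 60 genes (41.7%) and higher in 4. Negative interactions were called for 14 (23.3%), for 22 without mycorrhizal *ram1* replicate 1 and for 11 without mycorrhizal *ram1* replicate 2. The armadillo repeat kinesin gene Peaxi162Scf00145g01216.1 had 16.2, 19.4 and 15.9 CPM in mycorrhizal *ram1* roots, against 55.4, 56.4 and 61 CPM in mycorrhizal wild type roots (log2 fold change -1.75 ± 0.14, adjusted p = 3.19e-06). *Kinesin 4* (Peaxi162Scf00001g03324.1) had 24.8, 20.2 and 19.6 CPM in mycorrhizal *ram1* roots, against 54, 47.5 and 53.8 CPM in mycorrhizal wild type roots (log2 fold change -1.26 ± 0.13, adjusted p = 2.48e-05). In controls the armadillo repeat gene had 15.1, 12 and 17.1 CPM in *ram1* control roots, against 11.6, 14.5 and 12.3 CPM in wild type control roots. Histone genes were lower in 31 of 83 in mycorrhizal *ram1* roots and in 35 of 83 in *ram1* controls, and a positive interaction was called for 1 and a negative one for 0 (DESeq2 1, limma 0, 3 at an unadjusted p under 0.05 in edgeR). The positive ones numbered 4 without *ram1* control replicate 3.

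Heat shock proteins, which assist protein folding, had 19 of 49 genes (38.8%) higher and 12 lower in mycorrhizal *ram1* roots. The summed level was 14596, 17615 and 22446 CPM in mycorrhizal *ram1* roots, against 8698, 9331 and 9604 CPM in mycorrhizal wild type roots, and the number of higher genes was 13 without mycorrhizal *ram1* replicate 3. The members with the smallest p were lower. An *HSP70* gene (Peaxi162Scf00618g00333.1) had 37, 30.8 and 27.3 CPM in mycorrhizal *ram1* roots, against 151, 181 and 122 CPM in mycorrhizal wild type roots (log2 fold change -2.25 ± 0.19, adjusted p = 5.05e-06). *HSP90.1* (Peaxi162Scf00553g00086.1) had 237, 270 and 279 CPM in mycorrhizal *ram1* roots, against 474, 562 and 486 CPM in mycorrhizal wild type roots (log2 fold change -0.95 ± 0.12, adjusted p = 7.21e-05), with the opposite order in controls (log2 fold change 0.33). A class I small heat shock protein gene (Peaxi162Scf00132g00085.1) was a line difference (mycorrhizal log2 fold change -5.27 ± 0.51, adjusted p = 1.2e-05).

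**Figure D5:**
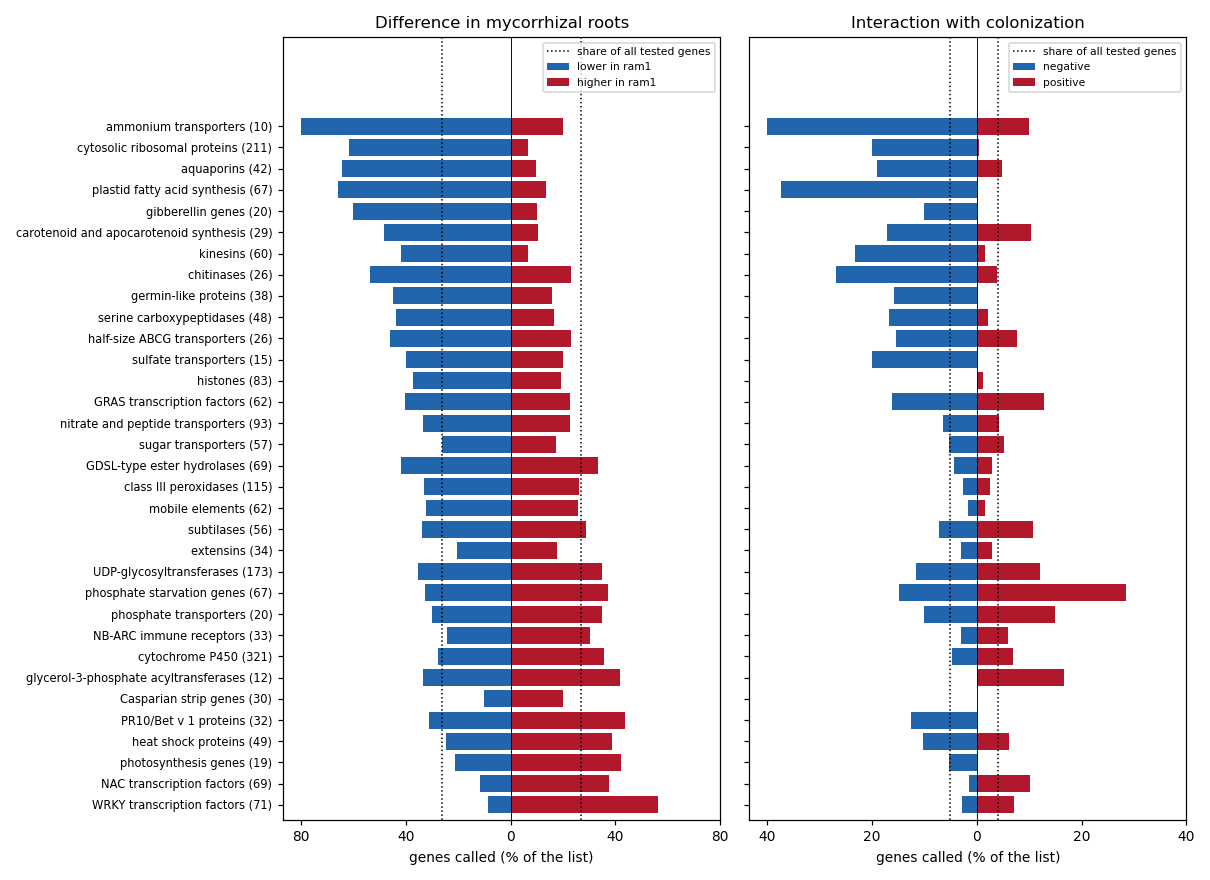
Share of the genes of each group, with the number of genes in parentheses, that were lower (blue) or higher (red) in mycorrhizal *ram1* roots (left panel) and that had a negative (blue) or positive (red) interaction (right panel). The dotted lines mark the shares over all genes tested, 26% and 26.7% on the left and 5.17% and 4.04% on the right. Plastid fatty acid synthesis has 37.3% negative interactions, and phosphate starvation genes have 28.4% positive and 14.9% negative ones.

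Differences of the line class were present with and without the fungus. Several were large, and some of these were near to presence or absence. The glutathione transferase gene *GSTU18* (Peaxi162Scf00209g00844.1) had 10.3, 11 and 10.3 CPM in mycorrhizal *ram1* roots, against 208, 198 and 229 CPM in mycorrhizal wild type roots (log2 fold change -4.33 ± 0.11, adjusted p = 4.32e-09), and in controls 11.5, 12.2 and 12.7 CPM in *ram1* control roots, against 179, 216 and 214 CPM in wild type control roots. A gene described as DNA damage-binding protein 1 (Peaxi162Scf00296g01317.1) had 0.0777, 0.141 and 0.271 CPM in mycorrhizal *ram1* roots, against 117, 124 and 119 CPM in mycorrhizal wild type roots (log2 fold change -9.45 ± 0.25, adjusted p = 4.32e-09). An oxidoreductase gene (Peaxi162Scf00286g00533.1) had 9.17, 12.4 and 11.3 CPM in mycorrhizal *ram1* roots, against 320, 314 and 302 CPM in mycorrhizal wild type roots, and *histone H2B.1* (Peaxi162Scf01201g00008.1) had 1.24, 1.56 and 1.99 CPM in mycorrhizal *ram1* roots, against 120, 116 and 130 CPM in mycorrhizal wild type roots. In controls the lines were apart in the same way for each of these genes.

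Other genes of the line class were far higher in *ram1* than in W115, and some had close to no reads in W115. A kinase gene described as *BIK1* (Peaxi162Scf00016g03247.1) had 45.2, 40.7 and 56.5 CPM in mycorrhizal *ram1* roots, against 0.276, 0.251 and 0.381 CPM in mycorrhizal wild type roots (log2 fold change 7.23 ± 0.22, adjusted p = 5.38e-09). A disulfide isomerase gene, *PDIL2-1* (Peaxi162Scf00071g00438.1), had 99.3, 120 and 121 CPM in mycorrhizal *ram1* roots, against 6.45, 4.52 and 5.95 CPM in mycorrhizal wild type roots (log2 fold change 4.33 ± 0.15, adjusted p = 1.28e-08). *CYP71B37* (Peaxi162Scf00879g00018.1) had 177, 142 and 154 CPM in mycorrhizal *ram1* roots, against 0, 0 and 0.153 CPM in mycorrhizal wild type roots, and the 2 reads in mycorrhizal wild type roots give a ratio of *ram1* to wild type of 2885 with a counting interval of 798 to 23828. An alpha/beta-hydrolase gene (Peaxi162Scf00064g00625.1) had 117, 113 and 143 CPM in mycorrhizal *ram1* roots, against 0.46, 0.168 and 0.229 CPM in mycorrhizal wild type roots. Of the reads of these 2 genes 63.5% and 68.6% were unique. A disease resistance gene (Peaxi162Scf01385g00030.1) had 31.9, 31.8 and 33.6 CPM in mycorrhizal *ram1* roots, against 1.75, 1.68 and 2.06 CPM in mycorrhizal wild type roots (log2 fold change 4.14 ± 0.15, adjusted p = 1.37e-08).

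Complete absence was found for 202 of the 22406 genes in mycorrhizal *ram1* roots and for 201 genes in mycorrhizal wild type roots. Of the 202 genes, 146 had no read in *ram1* controls, and 93 of these had a mean of at least 10 reads in wild type controls. Of the 201 genes, 139 had no read in wild type controls, and 123 of these had a mean of at least 10 reads in *ram1* controls. On the scaffold of *RAM1*, 105 of 125 gene models were members, and 28 of them were lower and 25 were higher in mycorrhizal *ram1* roots (50.5% called). Of the 105 members on that scaffold 35 differed in controls, and 14 interactions were called. Over all 22406 members, 53.3% differed in mycorrhizal roots and 36.1% in controls, and an interaction was called for 9.39%.

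Genes of the PR10/Bet v 1 family, small proteins of defense, differed between the lines in both kinds of roots. Of 32 genes 14 (43.8%) were higher and 10 (31.2%) were lower in mycorrhizal *ram1* roots, against 26.7% and 26% of all genes. In *ram1* controls 18 were higher and 3 were lower, where 18.8% and 17.5% of all genes were. A member without a description (Peaxi162Scf00253g00099.1) had 380, 143 and 123 CPM in mycorrhizal *ram1* roots, against 4.6, 3.02 and 1.6 CPM in mycorrhizal wild type roots (log2 fold change 6.15 ± 0.54, adjusted p = 6.27e-06), and in controls 453, 285 and 370 CPM in *ram1* control roots, against 2.92, 1.67 and 3.05 CPM in wild type control roots. *MLP28* (Peaxi162Scf00005g02811.1) had 3.89, 4.81 and 3.25 CPM in mycorrhizal *ram1* roots, against 143, 143 and 139 CPM in mycorrhizal wild type roots (log2 fold change -5.17 ± 0.34, adjusted p = 7.69e-07), with 69.5% unique reads.

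In the class with opposite signs, 183 genes were lower in mycorrhizal *ram1* roots and higher in *ram1* controls, and 80 genes showed the reverse. A UDP-glycosyltransferase gene (Peaxi162Scf00160g00002.1) had 2.64, 5.66 and 4.79 CPM in mycorrhizal *ram1* roots, against 251, 276 and 273 CPM in mycorrhizal wild type roots (log2 fold change -5.97 ± 0.28, adjusted p = 7.67e-08). In controls it had 2.38, 2.62 and 2.59 CPM in *ram1* control roots, against 0.325, 0.502 and 0.0783 CPM in wild type control roots (log2 fold change 3.04 ± 0.41, adjusted p = 0.000205). *Chitinase 2* (Peaxi162Scf00411g00083.1) had 1.4, 1.56 and 1.54 CPM in mycorrhizal *ram1* roots, against 77.3, 51.6 and 47 CPM in mycorrhizal wild type roots (log2 fold change -5.29 ± 0.26, adjusted p = 1.27e-07), with a higher level in *ram1* controls (log2 fold change 1.42, adjusted p = 0.0168).

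Gibberellin genes gave a further example of this class. *Gibberellin 3-oxidase 1* (Peaxi162Scf00015g00525.1), the enzyme that forms bioactive gibberellin, had 5.99, 4.81 and 5.33 CPM in mycorrhizal *ram1* roots, against 25.2, 28.7 and 18.2 CPM in mycorrhizal wild type roots (log2 fold change -2.15 ± 0.27, adjusted p = 8.96e-05). In controls it had 4.51, 5 and 2.3 CPM in *ram1* control roots, against 1.3, 1.76 and 1.1 CPM in wild type control roots (log2 fold change 1.50 ± 0.32, adjusted p = 0.00357). A gene for the inactivating enzyme gibberellin 2-oxidase (Peaxi162Scf00111g00922.1) was lower in both kinds of roots (mycorrhizal log2 fold change -3.30 ± 0.35, adjusted p = 2.22e-05). Of 20 gibberellin genes 12 were lower and 2 were higher in mycorrhizal *ram1* roots, and 1 was higher without mycorrhizal *ram1* replicate 1. Of 69 genes for GDSL-type hydrolases of lipids 29 (42%) were lower and 23 (33.3%) were higher, against 26% and 26.7% of all genes. *GDSL esterase 1* (Peaxi162Scf00818g00216.1) had 134, 156 and 153 CPM in mycorrhizal *ram1* roots, against 525, 539 and 627 CPM in mycorrhizal wild type roots (log2 fold change -1.93 ± 0.14, adjusted p = 1.64e-06), with higher levels in *ram1* controls (log2 fold change 0.61). Another GDSL gene (Peaxi162Scf00235g00325.1) had 2.1, 2.69 and 2.17 CPM in mycorrhizal *ram1* roots, against 65.5, 43.5 and 52.9 CPM in mycorrhizal wild type roots (log2 fold change -4.55 ± 0.24, adjusted p = 1.99e-07).

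Markers of other tissues were compared as well. Photosynthesis genes, which mark green tissue, summed to 96.6, 123.2 and 120.3 CPM in mycorrhizal *ram1* roots, against 52.2, 50.3 and 72.9 CPM in mycorrhizal wild type roots. Of 59 such gene models 19 were members, 8 of them (42.1%) higher and 4 (21.1%) lower, against 26.7% and 26% of all genes. In controls the sums were 58.9, 63.0 and 99.7 CPM in *ram1*, against 30.5, 30.5 and 33.5 CPM in the wild type. A single photosystem I gene (Peaxi162Scf00932g00012.1) had 55.4, 60.4 and 66.3 CPM in mycorrhizal *ram1* roots, against 1.01, 0.419 and 0.61 CPM in mycorrhizal wild type roots. Without this gene the sums in mycorrhizal roots overlapped, with 41.2, 62.8 and 54.1 CPM in *ram1*, against 51.2, 49.9 and 72.3 CPM in the wild type. A *RuBisCO small chain* gene (Peaxi162Scf00231g01221.1) was lower (log2 fold change -4.34 ± 0.31, adjusted p = 1.46e-06). Casparian strip genes, which mark the endodermis, summed to 844.3, 819.5 and 802.2 CPM in mycorrhizal *ram1* roots, against 540.0, 514.7 and 461.5 CPM in mycorrhizal wild type roots. Of 30 such genes 6 (20%) were higher and 3 (10%) were lower, both below the shares of all genes. Their control sums were higher in *ram1* too, with 926.0, 772.5 and 1107 CPM, against 709.8, 662.5 and 755.4 CPM in the wild type, and no interaction was called. Without mycorrhizal *ram1* replicate 1, 7 of these genes were lower, and without replicate 2 of that group 1 was lower. A *CASP-like* gene (Peaxi162Scf00386g00921.1) alone had 394, 377 and 373 CPM in mycorrhizal *ram1* roots, against 79.1, 69.4 and 89.3 CPM in mycorrhizal wild type roots (log2 fold change 2.26 ± 0.29, adjusted p = 8.42e-05). It was higher in *ram1* controls as well, with 267, 250 and 526 CPM, against 144, 90 and 151 CPM in the wild type (log2 fold change 1.44, adjusted p = 0.00207). This gene is part of the sums and held most of their difference between the lines in both kinds of roots. The sums are therefore no measure of the group as a whole. Extensins of the root wall had 7 of 34 genes (20.6%) lower and 6 (17.6%) higher, both below the shares of all genes, and 15 were lower without mycorrhizal *ram1* replicate 1. The part of tissue composition in the differences above was not tested.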

How the data were processed

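RNA was sequenced as paired reads from 12 root samples in 4 groups of 3 replicate plants, and samples were grouped by their labels. According to the methods of the study, the authors trimmed the reads, aligned them to *P. axillaris* transcripts in the CLC Genomics Workbench and gave 2 counts to a read pair that aligned intact, 1 to a broken one. The deposited counts are these total gene reads per gene model, without normalization, and the reference is another species than *P. hybrida*. The deposited tables also hold RPKM, expression values, and fold changes and FDR values of the authors' own comparisons, which were not used.

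Genes with a mean of at least 10 reads in at least 1 of the 4 groups were tested (22954). Counts were scaled with TMM and fitted over all 12 libraries with the quasi-likelihood test of edgeR 4.0.16 in R 4.3.3, with Benjamini-Hochberg adjustment and a threshold of 0.05. The contrasts were *ram1* against wild type in mycorrhizal roots, in control roots, and the difference of both. SE is the log2 fold change divided by the square root of F. This SE, and the 95% interval of a log2 value made from it, can be too small for genes with few reads in a group. Where a group had at most 3 reads, the ratio has an exact 95% counting interval or is a lower bound against a floor of 3 reads. Named are *RAM1*, the symbiosis genes of the study, up to 3 members of a gene list with the smallest p, and the genes with the smallest p, at least 100 reads, a description and no overlap of replicates (10 lower and 10 higher of the mycorrhizal only class, 5 and 5 of the line class, 3 with opposite signs), except those said to be chosen after their values were seen. The members and the 39 lists, defined by words in the annotation or by identifier, were chosen with earlier results of these data known. Reads per library allow counting errors that are small beside the spread between replicates, whose chi-square per degree of freedom was 6.66 to 43.35, so that no library was a copy of another. Alternatives were DESeq2 1.42.0, limma 3.58.1, other scalings and filters, unique reads, a replicate block, a threshold of 0.01 and each library left out. A fit of the mycorrhizal libraries alone was a further alternative. The scripts were tested on simulated data.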

Additional observations from a re-analysis of the deposited data

Results flagged for a closer look

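For the genes described above the test of the interaction was used to find those whose difference between *ram1* and the wild type was another one in mycorrhizal than in control roots. Such a difference passed the adjusted p of 0.05 for 62 of them. All values below are interaction log2 values, negative where the ratio of *ram1* to wild type was lower in mycorrhizal roots, and for genes with few reads their size depends on the prior count of edgeR.

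Among the symbiosis genes, *RAM1* had -4.05, *PT4* -4.90, *AMT2* -10.16, *STR2B* -5.14 and *MAP70-5* -3.20. The values of *CASTOR* and *MAX2-B* were positive, at 0.70 and 0.98.

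In the plastid fatty acid synthesis group, pyruvate dehydrogenase E1 alpha had -2.19, E1 beta -2.99 and dihydrolipoyl acetyltransferase -2.96. Biotin carboxylase had -2.14, the biotin carboxyl carrier protein -3.26 and the malonyl-CoA ACP transacylase -1.63. Of the elongation cycle, 3-oxoacyl-ACP synthase 3 had -1.54, 3-oxoacyl-ACP reductase 4 -3.69, FabZ -2.47 and enoyl-ACP reductase 1 -3.0, and acyl carrier protein 1 had -9.24.

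Of the secreted hydrolases, the subtilisin-like protease had -9.22, the other subtilase -4.54, *SCPL22* -2.99 and the *SCPL40* genes -8.26 and -9.53. The gene with a chitinase insertion domain had -7.54, the acidic endochitinase -9.86 and *chitinase 2* -6.70. The values of the ripening-related genes were -8.93 and -9.54, and that of the methyltransferase gene was -5.09. *Germin-like 2* had -6.14 and the *germin-like 10* gene -9.53. The GDSL gene had -3.50 and *GDSL esterase 1* had -2.54.

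Of the transporters, the ammonium transporter 2 genes besides *AMT2* had -2.18 and -3.36, and ammonium transporter 1 had 1.17. *Phosphate transporter 2* had 4.0, *PHO1 homolog 1* 1.91 and *NIP1-1* -1.06.

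The phosphate starvation genes had positive values, 2.64 for *SPX1*, 1.20 for *SPX2*, 3.65 for *SPX3*, 2.14 for *SPX4*, 1.95 for *MGD2*, 0.74 for *DGD2*, 0.87 for *DGD1*, 1.34 for *SQD1* and 1.97 for *PAP17*. The exception among those named was *PAP24* with -3.22.

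Of the remaining genes, the lower GRAS gene had -1.53 and the higher one 1.95. The Rossmann-fold protein gene had 2.13, *CYP87A6* 1.72, the UDP-glycosyltransferase gene of the mycorrhizal only class 1.49 and the drought-responsive gene 1.86. The UDP-glycosyltransferase gene with opposite signs had -9.01 and *gibberellin 3-oxidase 1* had -3.65. The armadillo repeat kinesin had -1.95, *kinesin 4* -1.61, *HSP70* -1.22, *HSP90.1* -1.28 and the *RuBisCO small chain* gene -2.93.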

How the results depend on the processing

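No called difference or interaction of a gene given by name changed its sign under the alternatives run. The balance of lower and higher genes did change: in mycorrhizal *ram1* roots 6126 were lower and 5835 higher with DESeq2 size factors, 6320 and 5571 with filterByExpr, 6252 and 5943 with DESeq2, and 5847 and 5789 with limma. Leaving out each library in turn gave 5036 to 6310 lower and 5040 to 6260 higher genes in mycorrhizal *ram1* roots, and 3208 to 4046 lower and 3193 to 4368 higher genes in *ram1* controls. Negative interactions ranged over 758 to 1624 and positive ones over 477 to 1664. The mycorrhizal only class held 424 to 932 lower and 280 to 938 higher genes, and the line class 2285 to 2727 and 2342 to 2860. The largest interaction counts came without *ram1* control replicate 3. DESeq2 gave 1802 negative and 1448 positive interactions and 837 higher genes of the mycorrhizal only class. At an adjusted p under 0.01 the mycorrhizal only class held 312 lower and 149 higher genes and the line class 1932 higher genes. The cause of these shifts was not tested, beyond the stricter threshold itself. Of 3066 recomputed values of named genes in mycorrhizal roots, 23 were no longer past the threshold and 3 newly passed it, and of 480 interactions these numbers were 2 and 17.

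Replicate numbers are shared between groups, but the deviations of same-numbered mycorrhizal *ram1* and wild type libraries from their group means correlated at 0.124, -0.006 and 0.182, so that the numbers were not taken as pairs. With a replicate block, 5784 genes were lower and 5824 were higher in mycorrhizal *ram1* roots, 3787 were lower and 3982 were higher in *ram1* controls, and 993 negative and 771 positive interactions were called. The block left 581 lower and 440 higher genes in the mycorrhizal only class, and 2568 and 2790 in the line class. Genes with few control reads are limited most: of 47 genes without a read in the 6 control libraries 46 were lower in mycorrhizal *ram1* roots, with 0 interactions called by edgeR, 41 by limma and 18 by DESeq2.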
